A study of Mus musculus with 2 samples.

Results

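The sterol-sensing regulators Srebf1, Srebf2, Insig1, Insig2, Scap, Mbtps1 and Mbtps2 were described in DNase-seq maps of open chromatin in the mouse adrenal gland. They were chosen by name, as 7 of 21938 protein-coding genes of the GENCODE M21 annotation. Each was taken with its gene body and 50 kb on each side on the mouse build mm10. DNase-seq finds open chromatin by sequencing the cuts that DNase I, a nuclease, makes where DNA is not packed away. The data comprised 2 samples of 1 group, labelled as biological replicates 1 and 2. Both were adrenal gland tissue of B6CASTF1/J females, first-generation offspring of C57BL/6J and CAST/EiJ mice, at 10 days of age, and each label names 3 females. No other genotype, age or treatment was included. Both samples carry the same donor identifier, and whether it names a donor or a strain was not settled. Biological and technical differences between the samples therefore cannot be told apart here. With 1 group and 2 samples no test of a difference could be made, and all values below are descriptions given for each replicate.

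Cells read their cholesterol content in the membrane of the endoplasmic reticulum. There Scap binds the membrane-bound precursors of the transcription factors SREBP-1 and SREBP-2, encoded by Srebf1 and Srebf2, and the Insig proteins hold the Scap complex back when sterols are plentiful. When sterols fall, Scap carries the precursors to the Golgi, where the site 1 and site 2 proteases, encoded by Mbtps1 and Mbtps2, release the part that enters the nucleus and activates genes of cholesterol and fatty acid synthesis and of lipoprotein uptake. The adrenal cortex uses cholesterol as the precursor of all its steroid hormones.

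A promoter peak was a peak within 1 kb of any annotated transcription start of a gene, a distal peak had no annotated start of any gene within 1 kb, and a peak was shared when peaks of the 2 replicates overlapped by 1 bp or more. A footprint is a short stretch inside open chromatin that DNase I cuts less than its surroundings. Peak heights are the authors' deposited signal, given once per peak and without a unit, and read totals were not used here. Replicate 1 had 98813 peaks and 339116 footprints and replicate 2 had 55135 and 241536. Together they gave 48299 shared peaks, of which 26622 were distal. Markers of the labelled tissue were open: all 6 cortex markers had a shared promoter peak, with Star at 3.58 in replicate 1 and 1.25 in replicate 2, and Cyp11a1 at 3.74 and 1.87. Of 5 chromaffin markers 3 had one, Th had a peak of 0.809 in replicate 1 only and Pnmt had none. Shared promoter peaks were also found at 3 of 3 capsule, 3 of 4 adipocyte and 1 of 3 endothelial markers, and at 0 of 2 liver and 0 of 2 kidney markers. Among the adipocyte markers, Ucp1 had 2.58 and 2.01, and Adipoq had 1.27 in replicate 1 only. The part of each cell type in the peaks of the sterol regulators was not tested, and in such bulk tissue fewer open cells and less accessible DNA per cell cannot be told apart.

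The bases at most of the open starts are shown first, because the promoters of this pathway carry known binding sites of its own transcription factors. The open starts of Insig2 and Mbtps2 and the most 5′ start of Srebf1 are not shown. Each line gives the part of the promoter peak from its upstream edge to at most 30 bases past the most 5′ start, or up to 300 bases, read 5′ to 3′ on the strand of the gene from the mm10 reference. Capitals mark bases that lay inside footprints of both replicates. The reference is C57BL/6J, so CAST/EiJ alleles are not shown. The intervals are chr11:60210436-60210640 (minus strand) for the SREBP-1c start of Srebf1, chr11:60220575-60220720 (minus) for its SREBP-1a start, chr15:82146981-82147210 (plus) for Srebf2, chr5:28071093-28071392 (plus) for Insig1, chr9:110333201-110333317 (plus) for Scap and chr8:119558706-119559000 (minus) for Mbtps1.
Srebf1 SREBP-1c start: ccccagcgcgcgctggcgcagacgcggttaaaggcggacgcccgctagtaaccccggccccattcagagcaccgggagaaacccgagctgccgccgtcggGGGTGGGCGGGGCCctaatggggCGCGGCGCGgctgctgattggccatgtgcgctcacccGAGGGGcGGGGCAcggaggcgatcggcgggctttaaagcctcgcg
Srebf1 SREBP-1a start: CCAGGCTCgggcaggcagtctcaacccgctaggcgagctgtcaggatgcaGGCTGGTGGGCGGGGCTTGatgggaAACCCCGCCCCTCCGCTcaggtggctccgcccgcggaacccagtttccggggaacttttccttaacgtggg
Srebf2: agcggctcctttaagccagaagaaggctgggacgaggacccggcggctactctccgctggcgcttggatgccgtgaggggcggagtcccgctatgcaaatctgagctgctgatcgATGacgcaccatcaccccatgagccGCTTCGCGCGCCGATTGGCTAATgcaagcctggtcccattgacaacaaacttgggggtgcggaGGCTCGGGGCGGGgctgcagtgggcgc
Insig1: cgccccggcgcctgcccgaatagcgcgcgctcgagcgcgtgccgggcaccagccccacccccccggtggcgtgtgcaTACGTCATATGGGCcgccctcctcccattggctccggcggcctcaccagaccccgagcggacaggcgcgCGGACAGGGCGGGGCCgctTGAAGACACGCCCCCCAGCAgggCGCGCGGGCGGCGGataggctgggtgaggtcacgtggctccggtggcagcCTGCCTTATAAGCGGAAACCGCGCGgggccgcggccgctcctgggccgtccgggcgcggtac
Scap: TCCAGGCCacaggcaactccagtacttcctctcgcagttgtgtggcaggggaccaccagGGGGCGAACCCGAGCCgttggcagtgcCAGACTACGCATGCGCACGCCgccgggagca
Mbtps1: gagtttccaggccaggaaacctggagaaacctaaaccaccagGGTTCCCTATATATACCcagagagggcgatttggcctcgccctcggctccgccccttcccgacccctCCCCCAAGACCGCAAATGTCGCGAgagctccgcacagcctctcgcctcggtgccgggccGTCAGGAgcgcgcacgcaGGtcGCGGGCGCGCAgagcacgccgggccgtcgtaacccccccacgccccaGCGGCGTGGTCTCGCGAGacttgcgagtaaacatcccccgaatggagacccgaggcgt

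All 7 regulators had a promoter peak in both replicates, against 63.6% of all protein-coding genes. For heights, 1 shared promoter peak was taken per gene, that with the highest product of both heights. Over the regulators its median was 11.46 in replicate 1 and 4.475 in replicate 2, against 5.94 and 3.10 over the 13948 genes with such a peak. The median of the regulators was thus above that of the genes with such a peak in either sample, but the members did not behave alike. Insig1 stood highest, Srebf2, Mbtps1, Scap, Srebf1 and Insig2 followed between 8.86 and 12.9 in replicate 1 and between 4.31 and 6.01 in replicate 2, and Mbtps2 lay far below in both. Counted by start regions, that is groups of starts less than 1 kb apart, 9 of 29 had a shared peak, against 33.8% of the start regions of all protein-coding genes. The share of open start regions in the 7 genes was thus close to that of all genes.

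**Figure D1:**
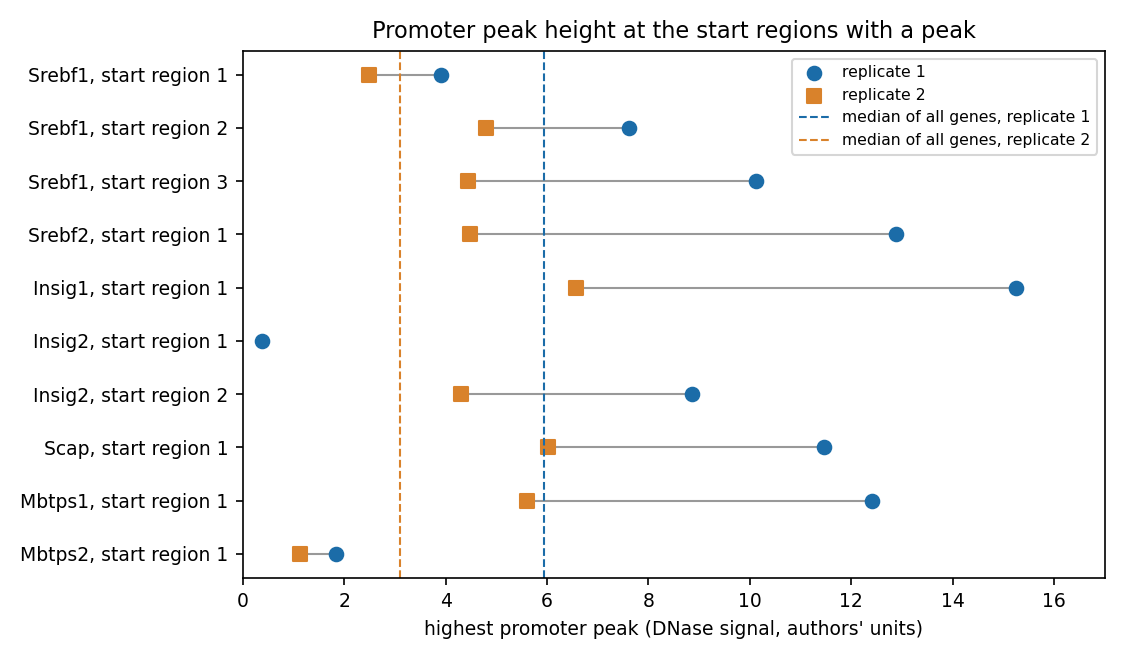
Height of the highest promoter peak (deposited DNase signal, linear axis from 0) at each start region of the 7 genes that had a peak, numbered from the 5′ end of the gene. Circles are replicate 1, squares are replicate 2 and dashed lines are the medians of all genes with a shared promoter peak. Insig1 reaches 15.3 and 6.56, Mbtps2 stays at 1.85 and 1.12, and the upstream start region of Insig2 has a peak of 0.381 in replicate 1 only.

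Srebf1, which encodes the SREBP-1 proteins, was open at 3 of its 7 start regions. The gene lies at chr11:60199089-60222581 on the minus strand. Its isoform SREBP-1a has a longer acidic activation domain than SREBP-1c, and both are made from separate first exons. Transcript Srebf1-201, with 30 codons in its first coding stretch, was taken as SREBP-1a, and Srebf1-207, with 6 codons, as SREBP-1c. The SREBP-1c start, 12116 bp downstream of the most 5′ start, had a peak at chr11:60210361-60210640 with heights of 10.1 in replicate 1 and 4.45 in replicate 2. The SREBP-1a start, 1977 bp downstream of the most 5′ start, had a peak at chr11:60220321-60220720 with 7.63 and 4.80. The 1c peak was thus the higher in replicate 1 and the 1a peak the higher in replicate 2, so that the samples gave no common order for these starts. Among genes with a shared promoter peak these peaks lay well above the median, with the 1c peak at percentile 80.4 in replicate 1 and 77.0 in replicate 2.

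A further open region of Srebf1 was its most 5′ start, where a noncoding transcript begins, with a peak just upstream at chr11:60222761-60223160 of 3.92 and 2.50. Another peak at chr11:60209281-60209600, in the intron within 1 kb of the SREBP-1c starts, had 3.96 and 2.10. No shared peak was found at the remaining 4 start regions, which include the start of the coding transcript Srebf1-203. At the 3′ end of the gene a peak of 4.57 and 3.58 lay in an untranslated exon, at chr11:60199721-60199940, within 1 kb of the annotated start of the microRNA gene Mir6921. It was therefore counted as the promoter of another gene, as were 3 lower peaks at Rai1 starts 45.9 to 47.0 kb downstream of the most 5′ start.

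**Figure D2:**
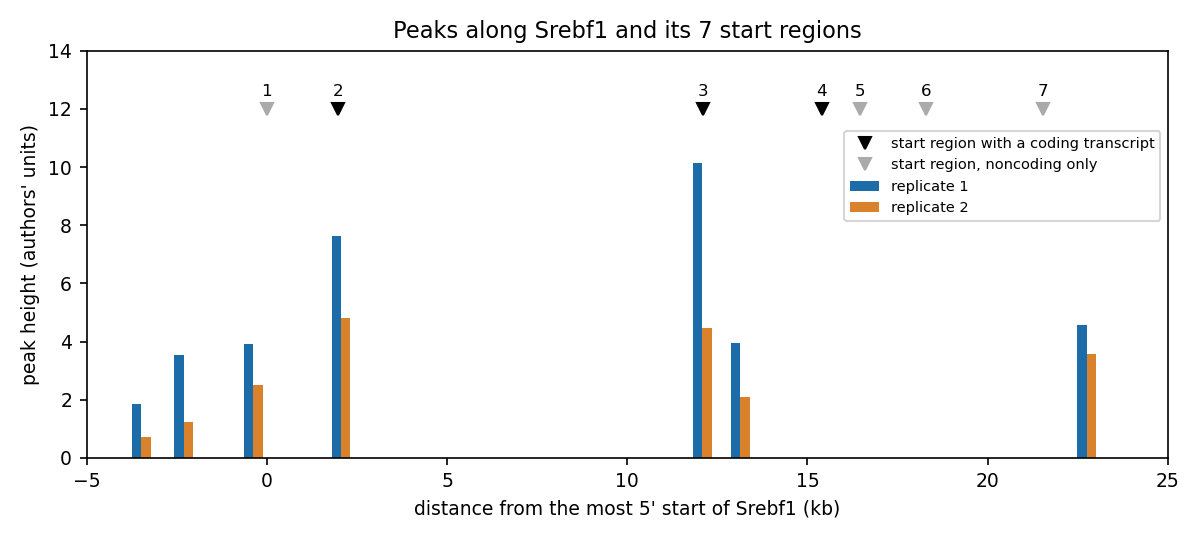
Peaks along Srebf1 by distance from its most 5′ start in the direction of transcription (kb), with bar height giving the deposited signal in each replicate and triangles marking the 7 start regions, black where a transcript is coding. Regions 1 to 3 carry peaks, the highest of 10.1 in replicate 1 at the SREBP-1c start (region 3), and regions 4 to 7 carry none within 1 kb.

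In the SREBP-1c sequence above, a CCAAT box (attgg on this strand), then catgtg, then the letters ctcaccc and then a GC box stand in a row just upstream of the start. In the mouse this stretch is known as a composite element of NF-Y, E-box, sterol response and Sp1 sites through which SREBPs act on their own gene. Here the middle base of the GC box 10 bp upstream of the start lay inside a footprint of both replicates, but its C did not. All of a further GC box 69 bp upstream lay in footprints of both replicates. The CCAAT box 34 bp upstream lay in a footprint of neither replicate. At the SREBP-1a start, GC boxes 35 and 57 bp upstream lay in footprints of both replicates and another 13 bp upstream in none. The SREBP-1c peak held 6 footprints in replicate 1 and 7 in replicate 2, with 5 in both, and the SREBP-1a peak 8 and 7, with 6 in both.

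Srebf2, which encodes SREBP-2, the main activator of cholesterol synthesis genes, was open at 1 of 2 start regions. It spans chr15:82147181-82205379 on the plus strand. Its promoter peak at chr15:82146981-82147340 had heights of 12.9 in replicate 1 and 4.475 in replicate 2, at percentiles 92.5 and 77.5. The log2 ratio of replicate 1 over replicate 2 was 1.53, the largest among the promoter peaks of the 7 genes. In an intron, a wide peak at chr15:82147561-82148080 had 1.40 and 1.52, and among the shared promoter peaks of these genes it was the only one higher in replicate 2. It held 0 footprints in either replicate, whereas the main peak held 6 and 7, with 4 in both.

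A footprint of both replicates in the Srebf2 promoter covered the CCAAT box, read as attgg in the sequence above, 45 bp upstream of the start. The letters tcacccca, a stretch of the sterol response element, lay 70 bp upstream and in a footprint of neither replicate. In the human gene a sterol response element next to an NF-Y site is known to let SREBPs activate this promoter. The 8 letters TCACCCCA, which overlap the element searched below and were searched on either strand after the sequence had been seen, occur in 1.43% of the windows from 250 bases before to 50 after the most 5′ start of all protein-coding genes.

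Srebf2 also hosts the microRNA miR-33 in an intron, at chr15:82198122-82198190. It is known to act on messages of cholesterol export such as Abca1. Its mature forms are shown with the seed, bases 2 to 8, in capitals.
mmu-miR-33-5p: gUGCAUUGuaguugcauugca
mmu-miR-33-3p: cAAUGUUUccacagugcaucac
Neither replicate had a peak, a footprint or a base at a false discovery rate (FDR) under 0.05 within 1 kb of the hairpin. The nearest peak lay 8196 bp away in replicate 1, with a height of 0.729, and 8420 bp away in replicate 2, with 0.855, both downstream of the end of the gene. The other start region of Srebf2, nearer to the hairpin than the promoter, had no peak.

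Insig1, the Insig protein whose gene is itself an SREBP target, had the highest promoter peak of the 7. The gene lies at chr5:28071363-28078662 on the plus strand. The peak at chr5:28071061-28071440 had heights of 15.3 in replicate 1 and 6.56 in replicate 2. These stood at percentiles 97.5 and 96.7 of the genes with a shared promoter peak. It lies within 1 kb of the start of the noncoding gene Gm26608 on the other strand, so that the signal cannot be told apart between these starts. A second peak in an intron, at chr5:28071661-28072220, had 3.33 and 1.70. In the main peak 7 footprints were called in replicate 1 and 7 in replicate 2, of which 5 were in both. GC boxes 74 and 115 bp upstream lay in footprints of both replicates, the CCAAT box 165 bp upstream in a footprint of replicate 2 only, and the E-box cacgtg 49 bp upstream in none.

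Insig2, the second Insig protein, was open at a start that is not its most 5′ one. It spans chr1:121304353-121332589 on the minus strand. A group of 8 coding transcripts starts 4565 bp downstream of the most 5′ start, and the peak there, at chr1:121327701-121328060, had heights of 8.86 in replicate 1 and 4.31 in replicate 2. The most 5′ start region, with 2 coding transcripts, had a peak of 0.381 in replicate 1 only, with a lowest FDR of 0.000398. In replicate 2 no base there was listed under an FDR of 0.05. The open start had a ratio of observed to expected CpG dinucleotides of 0.642 within 500 bp, and the upstream start 0.113, at percentiles 58.4 and 10.0 of all genes. In mouse liver, Insig2 is known to be transcribed also from a liver-specific promoter that insulin represses. The open peak held 5 footprints in replicate 1 and 4 in replicate 2 but only 1 in both, and it lay within 1 kb of the start of Gm37174.

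Scap, the escort protein, was open at 1 of 5 start regions. It spans chr9:110333288-110384950 on the plus strand. Its peak at chr9:110333201-110333400 was narrow, 200 bp wide, with heights of 11.46 in replicate 1 and 6.01 in replicate 2, at percentiles 87.2 and 94.0. It held 4 and 5 footprints, with 3 in both. A footprint of both replicates covered a match to the NRF1 site, GCGCATGCG on either strand, 10 bp downstream of the start, where the sequence above reads in capitals. NRF1 is a factor of many housekeeping promoters, and this motif occurs in 2.48% of all promoters and in 3.44% of those with a shared peak.

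Mbtps1, the gene of the site 1 protease, was open at 1 of 4 start regions. Among the 12 single shared promoter peaks, its peak held the most footprints found in both replicates. The gene lies at chr8:119508156-119558735 on the minus strand. Its peak at chr8:119558481-119559000 had heights of 12.4 in replicate 1 and 5.62 in replicate 2, at percentiles 91.2 and 91.3. There were 13 footprints in replicate 1 and 10 in replicate 2, of which 9 were in both. The CGCG element, searched as CTCGCGAG after the sequence had been seen and known as the site of the factor BANP, lay 15 bp upstream of the start in a footprint of both replicates. It occurs in 1.21% of all promoters and in 1.91% of those with a shared peak. A small peak of 0.564, 598 bp upstream, was found in replicate 2 only.

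Mbtps2, the gene of the site 2 protease, had the lowest promoter peak of the 7. The gene lies at chrX:157535371-157598715 on the minus strand. Its peak at chrX:157598161-157598940 was the widest, 780 bp, with heights of 1.85 in replicate 1 and 1.12 in replicate 2. These stood at percentiles 15.1 and 13.1 of the 13948 genes with a shared promoter peak, so that genes without one were left out. The 428 X-linked genes with a shared promoter peak had medians of 3.04 and 1.53, against 6.10 and 3.16 for autosomal genes. Among these X-linked genes the Mbtps2 peak stood at percentiles 31.3 and 31.8, below their median in both replicates. The promoter was among the richest in CpG, with a ratio of observed to expected of 1.03, at percentile 99.1. Its peak held 8 footprints in replicate 1 and 10 in replicate 2, with 4 in both. Across the 7 genes the open start regions had CpG ratios between 0.572 and 1.03. Those without a shared peak lay between 0.090 and 0.455, apart from the third start region of Mbtps2 at 0.893.

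**Figure D3:**
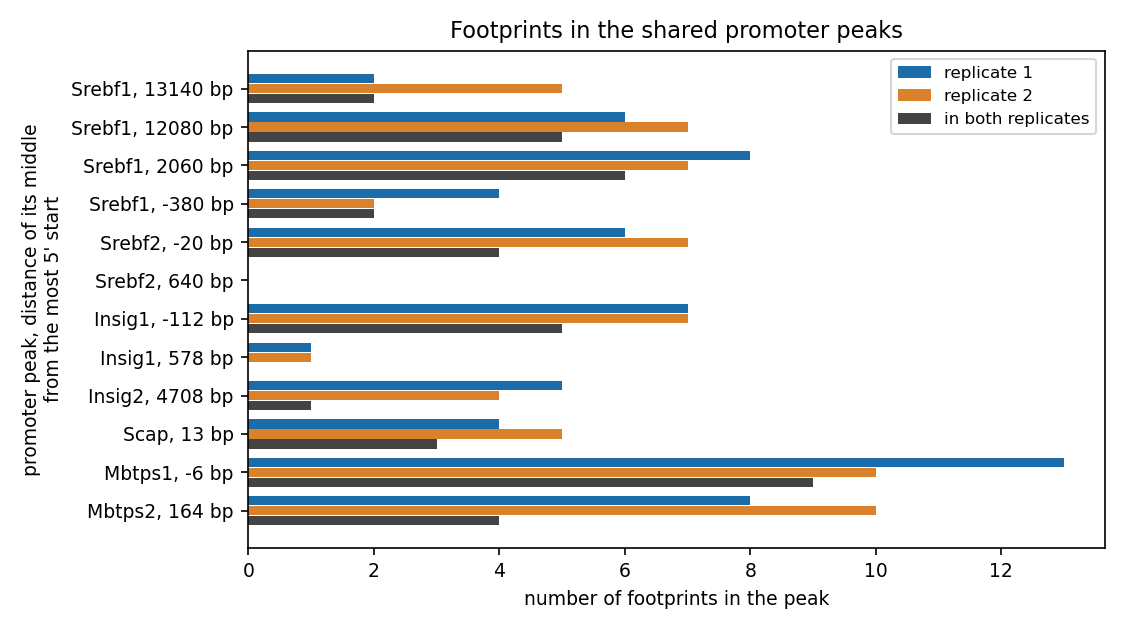
Number of footprints in each of the 12 shared promoter peaks of the 7 genes, named by the distance of the middle of the peak from the most 5′ start, with bars for replicate 1, replicate 2 and footprints in both. Mbtps1 has 13 and 10 with 9 in both, and the intron peak of Srebf2 at 640 bp has none.

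Over the 12 shared promoter peaks, 41 footprints were found in both replicates, and 10 of the peaks held at least 1 of them. The same counts were not made over all shared promoter peaks, so these cannot be set against other genes. Motif matches were then counted in the same window, 250 bases before to 50 after the start, at the 9 open start regions. The GC box GGGCGG, a site of Sp and KLF factors, was present on either strand in 7 of 9, against 43% of all promoters and 63.3% of those with a shared peak. The CCAAT box was present in 4 of 9, against 39% and 38.3%, and the E-box CACGTG in 2 of 9, against 7.75% and 10.3%. The ETS site CCGGAAG (10.8% and 16.5%), the AP-1 site TGANTCA (6.91% and 4.46%) and the TATA box TATAAA (12.6% and 7.05%) each had a match in 1 window. A match to CTCF, by its consensus, was found in 1 window, that of Scap, against 1.77% and 2.38%.

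The classical sterol response element, searched as TCACNCCAC on either strand, had no match in these 9 windows, and 1.23% of all promoters held it. A single match lay 282 bp upstream of the most 5′ start of Srebf1, inside the peak of that start and in a footprint of neither replicate. No window held the sites of NR5A1 (CAAGGTCA, 1.45% of all promoters), CRE-binding factors (TGACGTCA, 2.43%), YY1 (ANATGGCG, 4.24%), C/EBP (TTGCNNAA, 10.5%) or GATA factors (AGATAA, 10.2%). The consensuses of LXR (0.643%), DR1 (0.0866%), the glucocorticoid receptor (0.205%) and NFI (0.0228%) had no match there either. The shared promoter peaks reach beyond these windows, and there YY1 matched at Insig2 and Srebf2, C/EBP at Srebf2 and GATA at Insig1. None of these matches lay in footprints of both replicates. The absence of a match says only that these letters are not in the window.

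Away from starts, the windows of the 7 genes held 36 distal regions, of which 18 were shared and 18 were found in replicate 1 only. They are given under a gene only because they lay in its window. Some lay beyond promoter peaks of other genes, and a link to the gene was not tested. Among those of replicate 1 only, 10 had a peak of replicate 2 in the longer list, at an FDR of up to 0.05. The share found in 1 replicate was not computed over all distal regions. Over the genome, replicate 1 had 98813 peaks of any kind and replicate 2 had 55135, with 48299 shared. At least 1 shared distal peak was found for 5 of 7 genes, against 73% of all protein-coding genes. Srebf2 and Insig1 had 5 each, Srebf1 had 4, Scap and Mbtps2 had 2 each, and Insig2 and Mbtps1 had 0. The median was 2 per gene both for the 7 and for all genes, and per 100 kb of window it was 1.32 and 1.11. The shared promoter peaks of the 7 genes had median heights of 8.24 in replicate 1 and 4.38 in replicate 2, against 1.49 and 0.933 for their shared distal peaks, whose heights were close to those of all shared distal peaks (1.497 and 0.874).

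**Figure D4:**
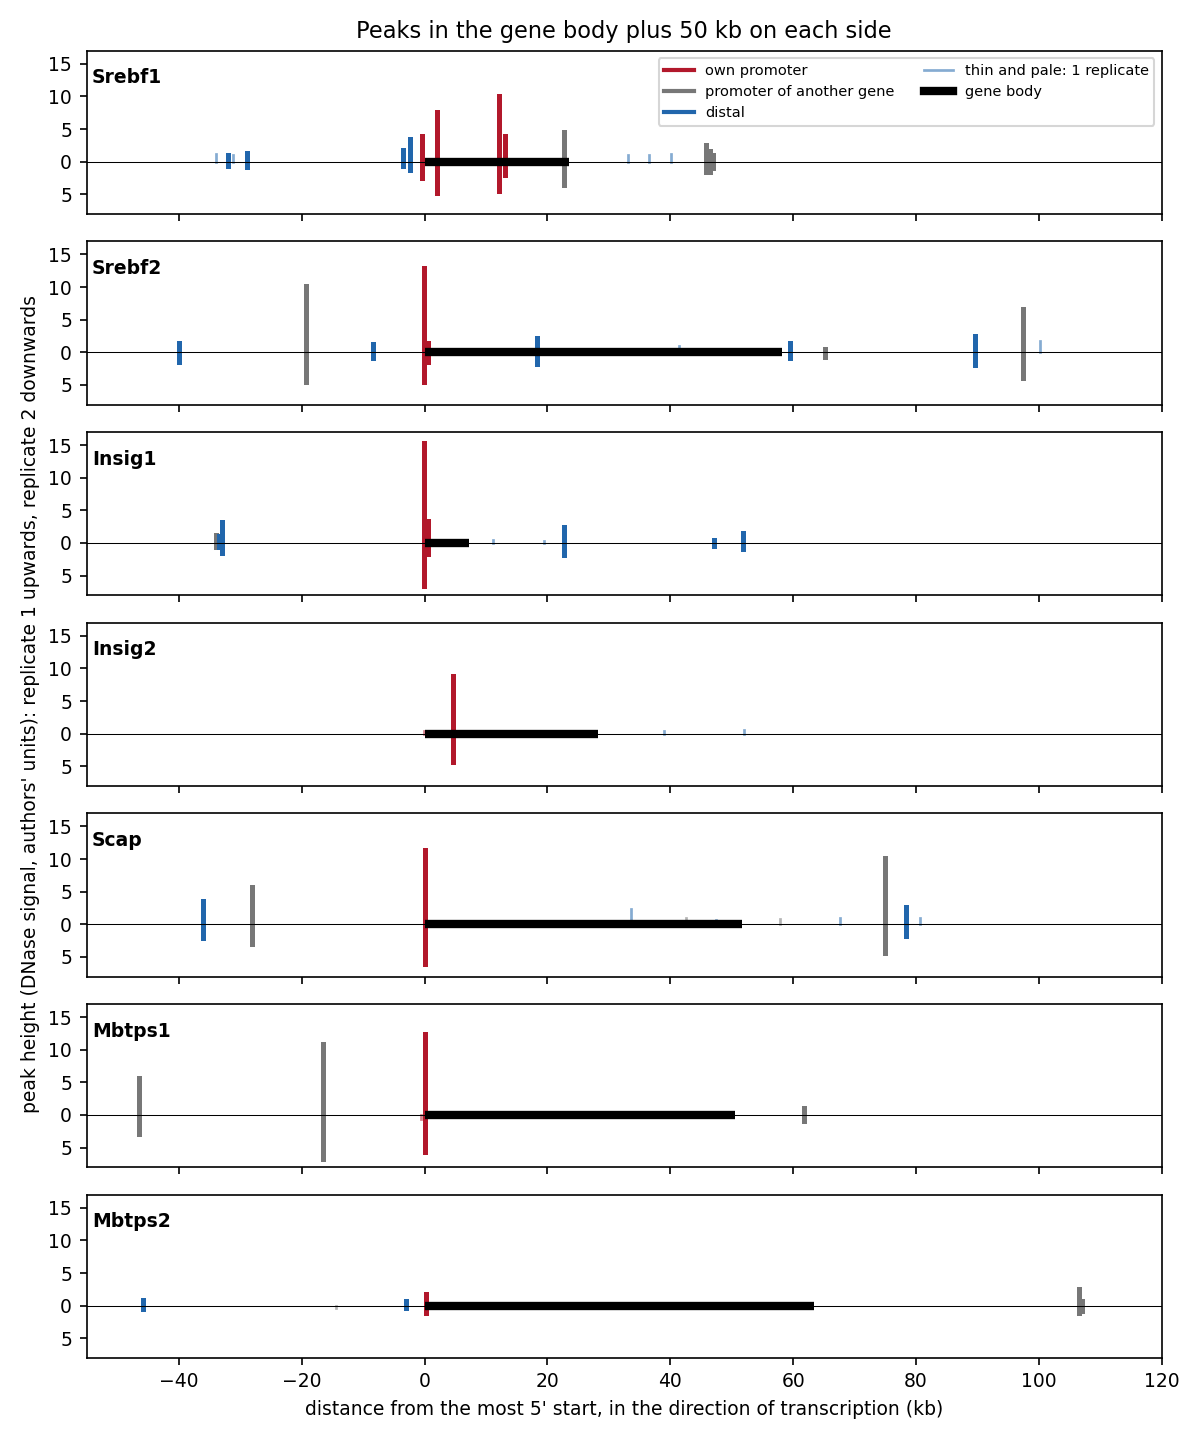
Peaks in the gene body plus 50 kb on each side, by distance from the most 5′ start (kb), with the height in replicate 1 drawn upwards and in replicate 2 downwards, and the gene body as a black bar. Thick lines are shared peaks and thin pale lines are peaks of 1 replicate; distal peaks reach at most 3.54 in replicate 1, and the windows of Insig2 and Mbtps1 hold no shared distal peak.

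The shared distal peaks in the window of Srebf1 included a pair just upstream of the gene. The higher, at chr11:60224721-60225060 and 2.3 kb upstream of the most 5′ start, had 3.54 in replicate 1 and 1.25 in replicate 2. The next, at chr11:60225961-60226160 and 3.5 kb upstream, had 1.87 and 0.725. Farther out, a peak at chr11:60251321-60251540 had 1.36 and 0.818 and another at chr11:60254401-60254601 had 1.02 and 0.651. The log2 ratios of the pair near the gene were 1.51 and 1.36, and those of the other two were 0.74 and 0.64. A footprint of both replicates in the highest of these peaks covered a C/EBP match, which lay more than 75 bp from the centre of the peak. Within 75 bp of the centre, 0 of the 18 shared distal peaks of the 7 genes held such a match in footprints of both replicates, against 1.09% of all shared distal peaks. The match is shown on the strand of the gene, from chr11:60224764-60224843, with capitals for the bases in footprints of both replicates.
Srebf1 upstream distal peak: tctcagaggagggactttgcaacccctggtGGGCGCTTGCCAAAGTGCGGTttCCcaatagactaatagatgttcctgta

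In the window of Srebf2 the highest distal peak lay at chr15:82236701-82236900, 89.6 kb downstream of its start, with 2.51 in replicate 1 and 1.93 in replicate 2. The next lay in an intron at chr15:82165381-82165600, with 2.14 and 1.81. The third, at chr15:82107061-82107260 and 40 kb upstream, had 1.48 and 1.44. Another, 8.5 kb upstream at chr15:82138621-82138812, had 1.22 and 0.936. It held a match to the LXR consensus, in a footprint of neither replicate. Within 75 bp of the centre, 1 of the 18 shared distal peaks of the 7 genes held such a match, against 0.334% of all. The intron peak was the only shared distal peak inside the body of any of the 7 genes.

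For Insig1 the highest distal peaks lay 33.0 kb upstream at chr5:28038241-28038440, with 3.22 in replicate 1 and 1.5 in replicate 2, and 22.8 kb downstream at chr5:28094041-28094220, with 2.50 and 1.903. The third, at chr5:28123121-28123340, had 1.49 and 0.930. For Scap they were at chr9:110297201-110297400, 36.0 kb upstream, with 3.54 and 2.11, and at chr9:110411621-110411800, 78.4 kb downstream, with 2.62 and 1.77. A peak in a Scap intron at chr9:110366841-110367060 had 2.33 in replicate 1 and no peak in replicate 2, in either peak list. The lowest FDR there was 0.0377 in replicate 2. For Mbtps2 the peaks at chrX:157644401-157644600 (0.796 and 0.496) and chrX:157601596-157601755 (0.642 and 0.397) were the lowest in both replicates among the distal peaks named here.

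Of the 18 shared distal peaks 16 held a footprint in both replicates, against 85.7% of all shared distal peaks. A match to CTCF, the factor that bounds chromatin loops, lay inside footprints of both replicates in 5 of 18, against 17.2% of all. Of these peaks 3 lay in the window of Srebf2, 1 in that of Insig1 and 1 in that of Scap. They are shown because the protected bases and the motif can be read together. Each line gives 60 bases on the strand of the match, with capitals for bases in footprints of both replicates. The intervals are, in this order, chr15:82107135-82107194 (minus), chr15:82138705-82138764 (plus), chr15:82236769-82236828 (minus), chr5:28094108-28094167 (minus) and chr9:110297265-110297324 (minus).
Srebf2, 40 kb upstream: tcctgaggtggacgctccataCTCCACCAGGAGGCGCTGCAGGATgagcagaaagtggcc
Srebf2, 8.5 kb upstream: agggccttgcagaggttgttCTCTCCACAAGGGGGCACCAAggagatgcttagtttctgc
Srebf2, 89.6 kb downstream: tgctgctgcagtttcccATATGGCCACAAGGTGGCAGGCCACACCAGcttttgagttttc
Insig1, 22.8 kb downstream: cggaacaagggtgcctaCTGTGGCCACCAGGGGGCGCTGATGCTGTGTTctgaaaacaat
Scap, 36.0 kb upstream: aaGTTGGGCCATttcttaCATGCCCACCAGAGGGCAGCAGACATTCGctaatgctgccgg
In each line the capitals run over the shared letters ccac and past them on both sides. The stretches protected in both replicates were up to 24, 21, 30, 32 and 29 bp long, in the order of the lines.

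All 7 main promoter peaks were higher in replicate 1, as were those of 96.8% of all genes with a shared promoter peak. The log2 ratio of replicate 1 over replicate 2 was 1.53 at Srebf2, 1.22 at Insig1, 1.19 at Srebf1, 1.14 at Mbtps1, 1.04 at Insig2, 0.93 at Scap and 0.72 at Mbtps2. Its median of 1.14 compares with 0.92 over the main promoter peaks of all genes with a shared one. High peaks lean more to replicate 1 over the whole genome, with a median of 1.12 in the highest decile of height, which held 6 of these 7 main peaks, and 0.35 in the lowest. At distal peaks the median was 0.68 in the windows of the 7 genes and 0.70 over all. Of the 45 shared peaks of any kind in these windows, 42 were higher in replicate 1. The exceptions were the intron peak of Srebf2 and peaks at starts of Shisa8 (0.575 and 0.725) and Sms (0.675 and 0.855).

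**Figure D5:**
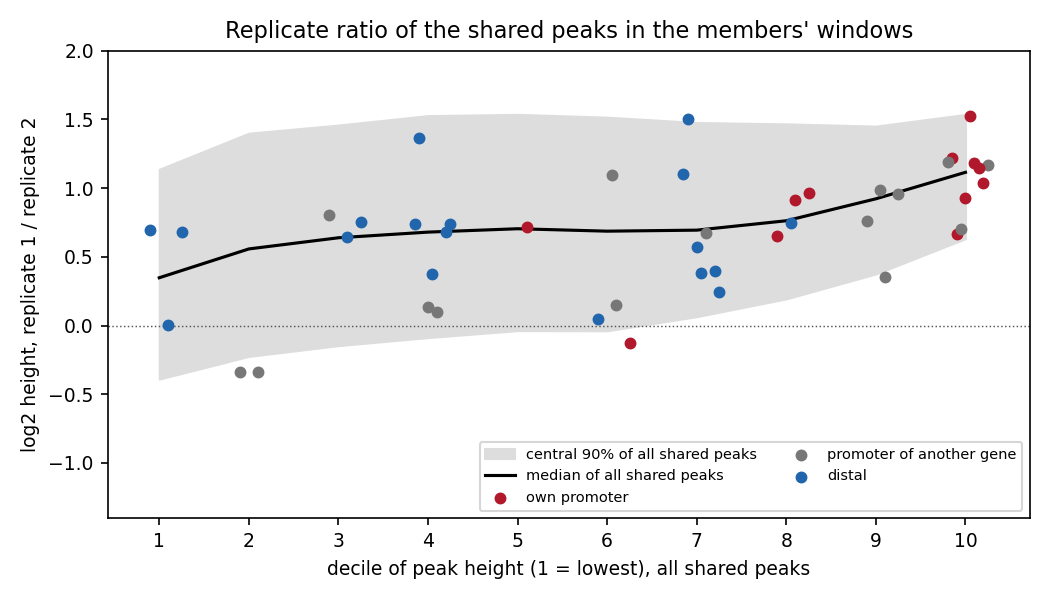
Log2 ratio of peak height, replicate 1 over replicate 2, for each of the 45 shared peaks in the windows, by decile of height over all shared peaks, with the median of all shared peaks as a line and their central 90% as a band. The points at promoters in the highest decile lie between 0.67 and 1.53, and the points below 0 number 3.

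The genes that act with the regulators were also open. All 12 genes of the transport of the Scap complex from the endoplasmic reticulum to the Golgi had a shared promoter peak, with medians of 9.57 in replicate 1 and 4.13 in replicate 2. The highest were the coat subunit genes Sec23a (13.8 and 5.14) and Sec31a (13.3 and 5.14) and Sar1a, the GTPase that starts the coat (12.1 and 5.48). All 11 genes of the sterol-dependent degradation of Insig and of HMG-CoA reductase had one, with medians of 6.72 and 4.04. They were led by Vcp, the ATPase that extracts proteins from the membrane (13.96 and 5.08), Erlin2 (13.5 and 6.85) and Faf2 (12 and 6.98). All 8 genes of other substrates of the site 1 and site 2 proteases had one, with medians of 6.99 and 2.79. Here Atf6, the sensor of misfolded proteins, had 11.4 and 6.29, Creb3l2 had 9.49 and 2.59, and Creb3 had 7.92 and 3.81.

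All 7 genes of oxysterol receptors and their partners had a shared promoter peak, with medians of 8.46 in replicate 1 and 3.55 in replicate 2. Rxrb, a partner of the LXR receptors, had 16.5 and 6.77, Mylip, which marks the LDL receptor for degradation, had 12.8 and 6.42, and Nr1h3, which encodes LXR alpha, had 8.52 and 4.49. Among targets, all 9 genes of the mevalonate pathway up to squalene had one, with medians of 11 and 4.44. The highest were Mvd (13.6 and 4.44), Fdft1 (13.21 and 4.41) and Hmgcs1 (12.8 and 4.57). All 12 genes of sterol synthesis after squalene had one, with medians of 8.73 and 3.73, led by Dhcr7 (16.8 and 6.37), Hsd17b7 (11.4 and 4.47) and Lbr (10.8 and 4.66). All 8 fatty acid synthesis targets had one too, but with medians of 4.78 and 3.24, from Acly (12.04 and 4.87), Acaca (11.4 and 4.92) and Fasn (9.61 and 5.19) at the top to Scd1 (1.69 and 1.18). The counts over these lists came to 67 of 67, to be read against 63.6% of all genes, and the lists were chosen with earlier results known. Starts of neighbouring genes near these peaks were not examined.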

How the data were processed

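DNase-seq files of 2 samples were used as deposited on mm10, each made from 1 sample per the deposited file listing. Aligner and callers: not given in the sources used here. The deposited peak height is a signal in steps (0.00668 in replicate 1 and 0.00620 in replicate 2, whole to within 5% of a step in all values), so that it was read as scaled per sample. How it was scaled is not given in the sources used here, which limits height comparisons between replicates. The deposited FDR values are adjusted p-values per stretch of bases, listed under 0.05, and each deposited footprint carries the p-value 0.01, read as a threshold. In the windows, the lowest FDR was 0.001 or less in each peak of the shorter list and 0.05 or less in each of the longer, so the shorter was the main list. Reads of CAST/EiJ alleles were placed on the C57BL/6J reference, and their part in the heights was not tested.

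Shared peaks were merged overlaps of at least 1 bp, with the highest height per replicate. A gene was represented by the shared promoter peak with the highest product of both heights. Percentiles of height are the share of the genes with such a peak that had a lower one. A motif lay in a footprint when its middle base did, and distal peaks were searched within 75 bp of their centre. GENCODE M21, the mm10 genome and microRNA sequences from RefSeq (GRCm38.p6, both mature forms matched) were used, with Python 3.11.15, numpy 2.4.6 and pysam 0.24.0. The functions were tested on simulated data. For each pathway list the 3 genes with the highest promoter peaks in replicate 1 and those without a shared one were named, besides all 7 members with their promoter peaks and 3 highest distal peaks; other genes, Scd1 and the cell type markers included, were named after their values were seen. Members, lists and motifs were chosen with earlier results of these data known.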

Additional observations from a re-analysis of the deposited data

How the results depend on the processing

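No paired analysis was possible because there was 1 group. Over 10 results and 54 alternatives, 42 values kept to the main value within the limits set (1.5 times for counts, 1 SD between replicates or over the members, or the exact 95% binomial interval for the share), 12 moved and 0 reversed. Of the 42, 8 were fixed by construction and say nothing of stability. They include the median height read from 1 replicate alone, which stays within 1 SD of a value between the 2. The others are the counts of open genes, already complete, when a replicate is left out or 2 kb is taken around starts. Of the 7 members, 6 had a promoter peak at the most 5′ start only, the exception being Insig2, and all 7 under each other alternative; among the other pathway genes the lowest count was 63 of 67. The 18 shared distal peaks became 32 with the longer lists, 32 with 100 kb, 7 with 25 kb, 1 in gene bodies alone and 8 when peaks under each replicate's median height were left out. Members above the median distal count of all genes, 3 in the main setting, became 5 with the longer lists, 5 with 2 kb around starts and 1 in gene bodies alone. With replicate 1 or replicate 2 left out, distal peaks numbered 19 to 36 and members above the median 3 to 4. Footprints in promoter peaks then ran from 48 to 57 and the share of distal peaks with a footprint from 91.67% to 100%. For the median promoter height the shared peaks were kept and the heights of 1 replicate alone were read. That gave 4.475 to 11.46 (7.59 as the geometric mean of both). The median log2 ratio at promoters, 1.14, was 0.22 when centred on the main shared promoter peaks of all genes and 0.41 when centred on all shared peaks. The cause of these moves was not tested beyond what each setting changes by construction. A looser CTCF consensus, chosen after seeing the data, matched inside footprints of both replicates in 7 of 18 distal peaks, against 27.2% of all. The number of samples, 2, limits every value, and read depth was not used here.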
